A study of Drosophila melanogaster with 9 samples.

Results

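The pericentromeric ends of chromosome arms 2L and 3L were examined as sites of DNA replication start in 2 cultured Drosophila melanogaster cell lines. An origin counted as a member when it began 21 Mb or more along 2L, or 22.5 Mb or more along 3L, in genome build dm3. Counted up to the last base covered by any list, 23009924 on 2L and 24533030 on 3L, the ends spanned 2.01 and 2.03 Mb, or 8.50% of both arms. Of the 32247 regions in the 5 deposited origin lists, 1885 were members and 9953 lay on the rest of the same arms. The members numbered 342 in the S2 list, 458 in the Bg3 list, and 330, 392 and 363 in the lists of S2 fractions 4, 5 and 6. The ends were compared with the rest of 2L and 3L.

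Replication begins where helicases loaded by the origin recognition complex are activated, and each start is marked by a short leading strand that still carries its RNA primer. Sequencing of short nascent strands (SNS-Seq) purifies these strands by digesting DNA that lacks an RNA primer with lambda exonuclease. DNA next to Drosophila centromeres is heterochromatin: it is rich in transposable elements and tandem repeats, poor in genes, packaged with methylated histone H3 lysine 9 and heterochromatin protein 1, and copied late in S phase. The assembled arms reach only its outer part, and the remainder lies in separate scaffolds or is not assembled. No chromatin mark was measured in these files, so the ends are defined by position alone.

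The S2-DRSC cells, first derived from embryos, had been grown in Schneider's medium. The ML-DmBG3-c2 (Bg3) cells, first derived from larval nervous tissue, had been grown in Shields and Sang M3 medium with insulin. Neither was treated, and no genotype beyond the line's name is given in the labels. For both lines, nascent strands of 0.5 to 2.5 kb had been pooled from a gradient, with 2 biological replicates per line. For S2 alone, single gradient fractions 4 (short strands), 5 (middle-sized) and 6 (long) had been sequenced, with 2 libraries each. Each list was deposited as 1 set with its replicates or libraries already combined, so no replicate spread exists, and no difference below was set against one.

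The S2 list held 7268 origins and the Bg3 list 8212, with 4505, 6448 and 5814 regions in fractions 4, 5 and 6. The S2 and Bg3 lists gave each origin an efficiency, called strength here, in reads per kb of the origin. The product of strength and width was a whole number of reads (tolerance 0.001) for 100% of S2 and 0.28% of Bg3 origins, so Bg3 reads are weighted and not on the S2 scale. Reads inside listed origins summed to 42.1 M in S2 and 31.6 M in Bg3, while the fraction lists held positions only and their depth is unknown. The intervals below are 95% intervals for counting error alone and treat origins as independent, although origins lie in clusters. DNA copy number in these lines, which are known to be aneuploid, and the yield of reads from repeated DNA were not measured here, so more starts, more DNA copies and easier detection cannot be told apart.

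Origins were listed more densely in the ends than on the rest of the arms in all 5 lists. The S2 list had 84.6 origins per Mb in the ends and 57.8 on the rest, a ratio of 1.46 (exact binomial interval 1.30 to 1.64). The Bg3 list had 113.3 and 60.5 per Mb, a ratio of 1.87 (1.69 to 2.07). The fractions had higher ratios than the pooled lists: their densities in the ends were similar to that of S2, and those on the rest were lower. Fraction 4 had 81.6 per Mb in the ends and 28.2 on the rest (ratio 2.89, 2.55 to 3.27). Fraction 5 had 96.96 and 43.6 (2.22, 1.99 to 2.48), and fraction 6 had 89.8 and 38.7 (2.32, 2.06 to 2.60). These ratios set each list against itself, and the differences between the lists' ratios were not tested.

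Both arms contributed. On 3L the S2 density was 82.1 per Mb in the end and 52.5 on the rest, and the Bg3 density was 132.3 and 66.3. On 2L the S2 values were 87.1 and 63.4, and the Bg3 values 94.0 and 54.2. The Bg3 list thus had more members than the S2 list on both arms, 269 against 167 on 3L and 189 against 175 on 2L. On the rest of 2L the order was the other way, with 1139 Bg3 and 1331 S2 origins. In fraction 4 the 3L ratio was 3.59 (2.99 to 4.29) and the 2L ratio 2.40 (2.02 to 2.85).

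**Figure D1:**
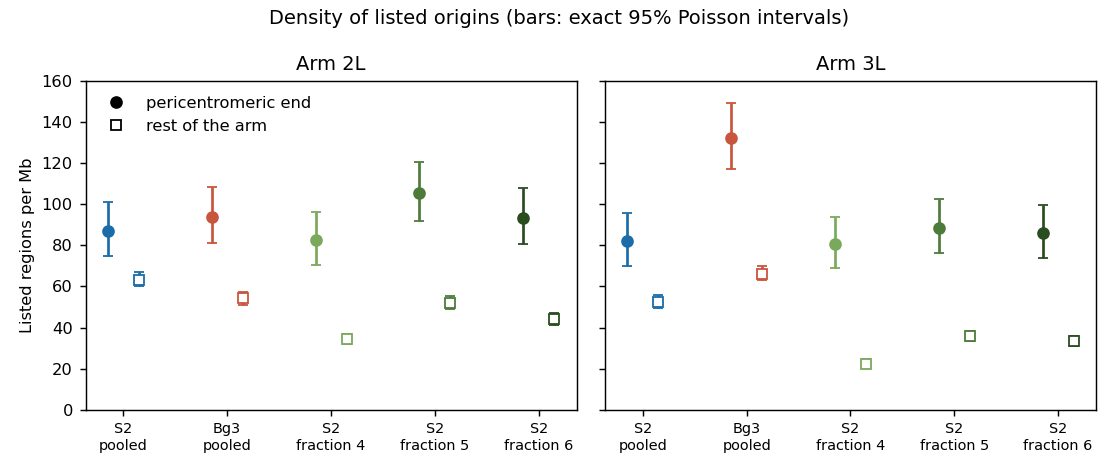
Listed regions per Mb (vertical axis) for each of the 5 lists on arm 2L (left) and arm 3L (right), in the pericentromeric end (filled circles) and on the rest of the arm (open squares), with exact 95% Poisson intervals as bars. In every list the end lies above the rest, and the Bg3 end of 3L is the highest value, at 132.3 per Mb.

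Listed regions also covered more of the DNA in the ends. S2 origins covered 11.4% of the ends and 4.89% of the rest, and Bg3 origins 11.7% and 4.31%. Fractions 4, 5 and 6 covered 11.6%, 11.5% and 11.3% of the ends and 2.87%, 3.35% and 3.37% of the rest. The 5 lists were therefore alike in the share of the ends they covered, although their numbers of members ran from 330 to 458. The distance between the centres of neighbouring members had a median of 7.79 kb in S2 and 4.503 kb in Bg3, against 10.5 and 8.66 kb on the rest.

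Density was not even within the ends. Among the 95 complete 500 kb windows of the 2 arms, 8 lay in the ends, and the 10 fullest windows included 4 of these 8 in S2, 5 in Bg3, 7 in fraction 4 and 6 each in fractions 5 and 6. In S2 the 8 windows held 20 to 58 origins with a median of 42.5, against 9 to 51 with a median of 28 in the other 87. In Bg3 they held 19 to 87 with a median of 67, against 8 to 87 with a median of 28. The 3L windows from 0.5 to 3 Mb, far from the centromere, were also among the 10 fullest in Bg3. They held 86, 87, 78, 72 and 71 origins. The ranges of end and rest windows overlapped in every list.

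The high windows lay nearer the centromere than the low ones. On 3L from 22.5 to 23 Mb the S2 list had 20 origins and the Bg3 list 26. Further in, the 3L windows from 23, 23.5 and 24 Mb held 32, 56 and 54 origins in S2 and 71, 78 and 87 in Bg3. On 2L the windows from 21, 21.5, 22 and 22.5 Mb held 36, 31, 58 and 49 origins in S2 and 33, 19, 67 and 67 in Bg3. All 3 fractions had their lowest number in the 3L window from 22.5 Mb, with 23, 23 and 24 regions. The last S2 origin before the 2L boundary had 1677 reads per kb and the first member, at 21004084 to 21005347, had 1998 reads per kb. On 3L the last S2 origin before it, at 22440759, had 1132 reads per kb and the first member, at 22500689, had 1438 reads per kb.

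**Figure D2:**
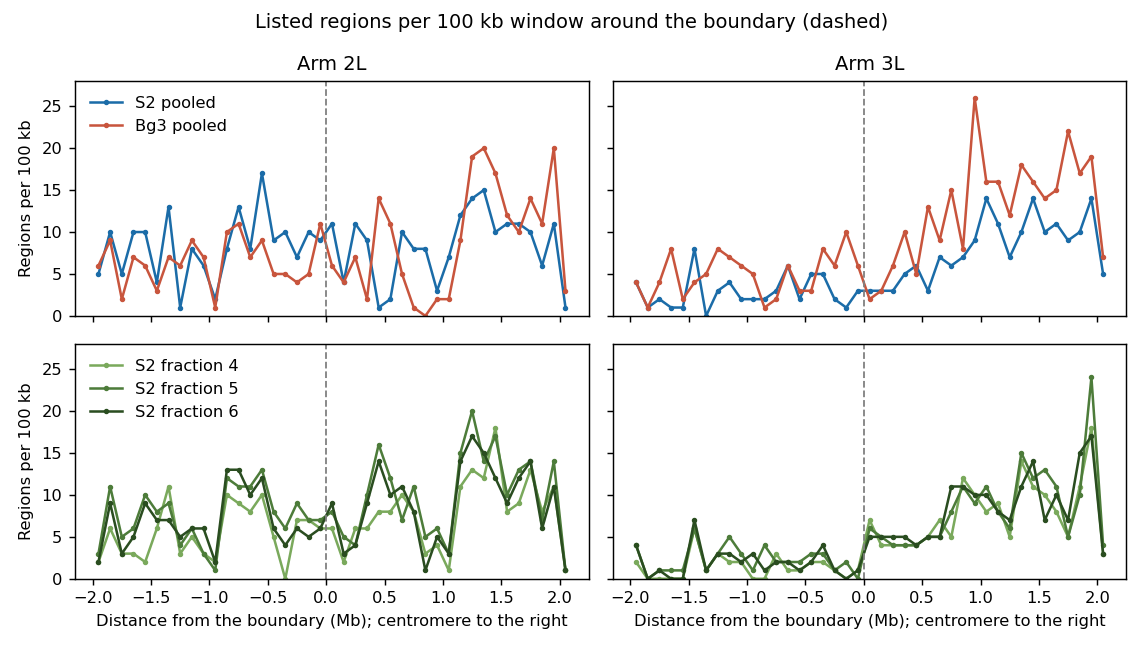
Number of listed regions in successive 100 kb windows (vertical axis) against distance from the boundary of each end (horizontal axis, in Mb, centromere to the right), for the pooled lists (top) and the S2 fractions (bottom). The Bg3 line peaks at 26 regions on 3L, and on 2L the Bg3 line falls to 0 in the window from 21.8 Mb, where S2 has 8 origins.

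The fullest 100 kb windows were mostly the same in the fractions. On 3L, fractions 4, 5 and 6 all had their fullest end window from 24.4 to 24.5 Mb, with 18, 24 and 17 regions. The S2 list also had its highest number there, 14, tied with the windows from 23.5 and 23.9 Mb, whereas the Bg3 list had 26 origins from 23.4 to 23.5 Mb. On 2L the fullest windows lay between 22.2 and 22.5 Mb in 4 lists, with 15 origins in S2, 18 in fraction 4, 20 in fraction 5 and 17 in fraction 6. The Bg3 list had 20 origins from 22.3 Mb and again from 22.9 Mb.

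The numbers of S2 and Bg3 origins were compared window by window with a two-sided exact binomial test over all 6 large arms, with Benjamini-Hochberg adjustment at 0.05. Of 243 tested 500 kb windows of these arms 8.64% passed (6.58% with more in Bg3), and 1 of the 9 tested windows of the ends did. This was 3L from 23 to 23.5 Mb, with 32 S2 and 71 Bg3 origins (exact binomial test, adjusted p = 0.00689). The share of end windows that passed was therefore near that of all windows. The next lowest, 3L from 24 to 24.5 Mb, had 54 and 87 origins (exact test, adjusted p = 0.0753), and 7 of the 9 windows had relatively more Bg3 origins, against 40.3% of all windows. An unadjusted p under 0.05 was found in 2 of the 9 and in 55 of all 243. When regions within 1 kb of each other were merged, the 3L window from 23 Mb held 26 and 45 origins and no longer passed (exact test, adjusted p = 0.209), where 5.76% of all windows did. With origins found in both lines left out, it held 8 and 45 (exact test, adjusted p = 6.69e-06), and 3 of 9 end windows passed, all on 3L, where 25.1% of all windows did. In that window this took out 24 S2 and 26 Bg3 origins, which by itself makes the proportion more unequal. In 250 kb windows 0 of 17 in the ends passed, where 1.28% of all did.

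No window of the ends passed this test between the 3 fractions. No window elsewhere did either, so the test cannot show the fractions to be alike. For each of the 3 pairs of fractions 0 of 9 end windows passed, with 0 under an unadjusted p of 0.05, where 0% of all 241 or 242 windows passed. Fraction 5 had relatively more regions than fraction 4 in 1 of 9 end windows, against 58.5% of all windows. Fraction 6 had relatively more than fraction 4 in 1 of 9, against 53.7%, and more than fraction 5 in 4 of 9, against 51.2%. Pooled S2 against each fraction, a comparison chosen after the data were seen, gave 0 of 9 passing end windows at 500 kb as well. The background was 0.823% of windows for fraction 4, and 0% for fractions 5 and 6. All 9 end windows had relatively more fraction 4 regions, against 44.9% of all windows, and 7 of them had an unadjusted p under 0.05, against 26 of all 243 windows.

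Origins in the ends were wider. For S2 the median region in the ends spanned 872.5 bp (interval 803 to 1007) and that on the rest 604 bp (588 to 619), a ratio of 1.44. In Bg3 it was 611 bp (552 to 676) against 446 bp (429 to 462), a ratio of 1.37. In fractions 4, 5 and 6 the medians were 933.5, 701 and 762 bp in the ends and 590.5, 495 and 541 bp on the rest, ratios of 1.58, 1.42 and 1.41. In each list the intervals of the 2 medians did not overlap. Members ranged from 251 to 7624 bp in S2 and from 106 to 8044 bp in Bg3.

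Very wide regions, of 4 kb or more, made up 6.14% of S2 members (21 of 342, interval 3.84 to 9.23) and 2.71% of the S2 origins on the rest (2.11 to 3.42). In Bg3 they were 4.803% (22 of 458, 3.03 to 7.18) and 2.32% (1.78 to 2.97). In fraction 4 the shares were 6.97% (4.47 to 10.3) and 5.54% (4.33 to 6.97), whose intervals overlap. Of the 21 wide S2 members, 18 overlapped a region in each of the other 4 lists and 0 were found in S2 alone. Wide origins carried 60.9% of the S2 reads in the ends and 55.2% on the rest. Much of the first share lay in the wide 3L members at 24432162 and 23105239. They held 977380 and 692246 of the 3959 k S2 reads in the ends. In Bg3 wide origins carried 39.4% and 32.01%, and of the 22 wide members 14 were found in all other lists.

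Fraction 4 regions of the ends were slightly wider than those of fractions 5 and 6 at the same place. Over 215 end regions matched singly between fractions 4 and 5, the median ratio of widths was 1.12 (1.10 to 1.17), against 1.02 (1.01 to 1.03) over 835 on the rest. For fraction 4 over 6 the ratio was 1.096 (1.04 to 1.13) over 193 end regions and 1.01 (0.991 to 1.01) over 731 on the rest. For fraction 5 over 6 it was 0.989 (0.968 to 0.996) over 260 in the ends and 0.982 (0.973 to 0.991) over 1157 on the rest, with overlapping intervals. Centres of matched end regions lay a median of 45 bp apart for fractions 4 and 5.

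The typical member was hardly stronger than an origin elsewhere on these arms. Median strength in S2 was 1637 reads per kb in the ends (1568 to 1740) and 1562 on the rest (1540 to 1578), a ratio of 1.05 (1.004 to 1.11). In Bg3 it was 2286 (2218 to 2411) against 2275 (2256 to 2300), a ratio of 1.00 (0.975 to 1.06). The intervals of the 2 medians overlapped in both lists. The interval of each strength ratio divides that of the median in the ends by the median on the rest. It leaves out the error of the latter. The 2 arms were not alike in Bg3: the end of 2L had a ratio of 1.11 (1.05 to 1.21) to its own rest and the end of 3L one of 0.947 (0.898 to 0.975). In S2 these ratios were 1.104 (1.02 to 1.15) and 1.003 (0.939 to 1.08). Whether the arms differed was not tested.

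Strong origins made up more of the ends than of the rest in both lists, and in Bg3 weak ones did too. When the origins on the rest were cut into 5 equal groups by strength, the strongest group's range held 30.1% of S2 members (25.3 to 35.3) and 32.1% of Bg3 members (27.8 to 36.6). The range of the weakest group held 28.6% of Bg3 members (24.5 to 32.98) and 19.9% of S2 members (15.8 to 24.5). The 3 middle groups held 12.2% to 13.5% of Bg3 members and 15.8% to 18.1% of S2 members each. In S2 the weakest range was thus filled as on the rest, while in Bg3 both extremes held more members than any middle range.

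A few members held much of the signal. The ends held 11.98% of the S2 origins of 2L and 3L but 33.2% of their reads, and 14.8% of the Bg3 origins but 31.98% of the reads. In S2 the 3 members with most reads held 54.4% of the reads of the ends, and in Bg3 24.9%. Leaving out the 3 origins with most reads from the ends and from the rest, the ends still held 19.9% of S2 reads and 26.8% of Bg3 reads.

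On 3L the strongest S2 member lay at 23840938 to 23842879. It reached 249283 reads per kb in S2, 159 times the median of the whole S2 list, and overlapped a Bg3 origin at 23841651 to 23842896 with 157164 reads per kb, the strongest of all Bg3 members. Both stood high in their whole lists, at rank 7 in S2 and rank 10 in Bg3, and the site was listed in all 3 fractions. The third strongest S2 member, at 23105239 to 23111079, had 118515 reads per kb in S2 and 70373 in Bg3, and was in all 3 fractions. A narrow origin at 22781089 to 22781392, 304 bp wide, had 22842 reads per kb in S2 and 86478 in Bg3, where it ranked 16 against 45 in S2. The fifth S2 member by strength, at 24235533 to 24240860, had 21803 and 10729 reads per kb.

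The second strongest S2 member of 3L, at 24432162 to 24436609, differed between the lines. It had 219735 reads per kb in S2 (rank 8) and 4707 in Bg3 (rank 397), although the Bg3 region, at 24432219 to 24436621, had nearly the same limits. This origin held 977380 reads, where all S2 members together held 3959 k. The site was listed in all 3 S2 fractions. With 1 list per line, the difference has no replicate check.

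Strong origins of 2L lay close to its last listed base. The strongest S2 member there, at 22983811 to 22985288, had 68486 reads per kb in S2 and 32798 in Bg3. The next, at 22994464 to 22995004, had 37104 and 23022, and the last member of the arm, at 23004348 to 23009658, had 20114 and 10575. A pair of adjoining origins farther out, at 22412700 to 22415929 and 22408874 to 22412599, had 32094 and 19500 reads per kb in S2 and 18985 and 14441 in Bg3. All 5 of the strongest S2 members of 2L were in Bg3 and in every fraction.

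Most but not all of the strongest Bg3 members were shared. On 2L the strongest, at 22985917 to 22986137, had 152035 reads per kb in a width of 221 bp and was in none of the 4 S2 lists. The nearest S2 origin was 629 bp away, and is the strong origin at 22983811 just named. On 3L the fifth strongest Bg3 member, at 23074531 to 23074721, had 10838 reads per kb in 191 bp and was also in no other list, with an S2 origin 1756 bp away. The other Bg3 members named by strength, 2L at 22180310 (15863 reads per kb) and 3L at 23564670 (29789), were found in S2 with 13182 and 16248 reads per kb and in all 3 fractions. The 2 strong Bg3 members found in no other list were therefore narrow, against a median of 611 bp for Bg3 members.

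Among the 138 members matched singly between S2 and Bg3, the median log2 ratio of Bg3 to S2 strength was 0.32 (interval 0.23 to 0.48), against 0.46 (0.42 to 0.50) for 916 matched origins on the rest. The scales of the lists differ, so only the difference between ends and rest can be read, and it was -0.14 on the log2 scale. The intervals of ends and rest overlapped, and the difference was not tested. On 2L 59 members had a median of 0.14 (-0.02 to 0.37) and 460 origins on the rest 0.38 (0.31 to 0.42), again with overlapping intervals. On 3L the 79 members had 0.55 (0.28 to 0.68) and 456 on the rest 0.56 (0.50 to 0.60). Across the 138 members, which share their 2 lists and are not independent replicates, the Spearman correlation of strength was 0.392, and it was 0.328 on the rest. Centres of matched members lay a median of 150.25 bp apart, against 93.5 bp on the rest, where matched origins were also narrower (701.5 against 1062.5 bp in S2).

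**Figure D3:**
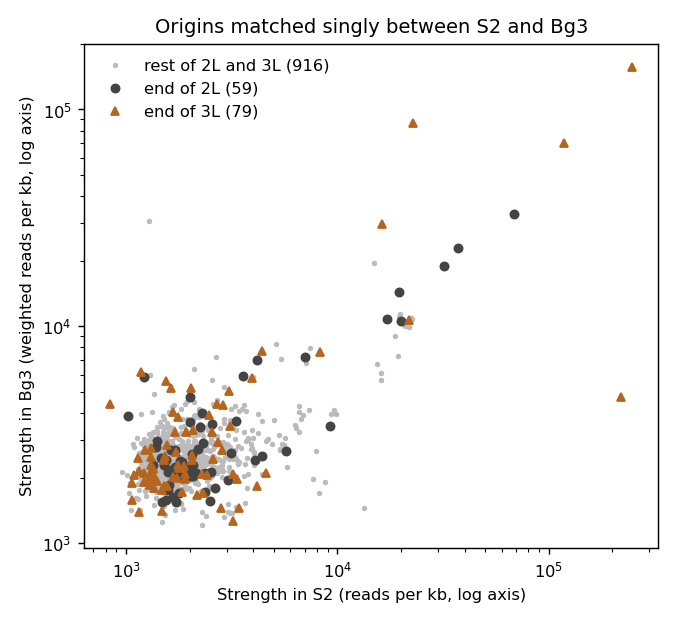
Strength in Bg3 against strength in S2, in reads per kb on log axes, for origins matched singly between the lists in the end of 2L (circles), the end of 3L (triangles) and on the rest of both arms (grey dots). Members of the ends hold the far upper right, and the lone triangle at the lower right is the origin of 3L with 219735 reads per kb in S2 and 4707 in Bg3.

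S2 members were found in other lists more often than S2 origins of the rest. Of 342 S2 members 54.1% overlapped a Bg3 origin by at least 1 bp (exact interval 48.7 to 59.5), against 41.03% on the rest (39.1 to 43.0). The excess lay on 3L, with 66.5% (58.8 to 73.6) in the end and 44.7% on the rest, whereas 2L had 42.3% (34.9 to 49.97) and 37.8%. In the other direction 43.0% of Bg3 members were in the S2 list (38.4 to 47.7) and 41.01% on the rest, which is within the interval. Wider and denser regions overlap more often by chance, and members were both. When 50% of both regions had to overlap, 25.7% of S2 members and 23.1% of the rest were found in Bg3. With a gap of up to 500 bp allowed, 52.6% of Bg3 members (47.9 to 57.3) and 44.3% of the rest were found in S2.

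S2 members overlapped regions of the single fractions more often as well. Those regions were wider and denser in the ends, which gives more overlaps by chance, and that part was not tested. In the ends 51.2%, 59.9% and 54.7% of S2 members were in fractions 4, 5 and 6, against 31.4%, 45.8% and 38.6% on the rest. All 3 fractions held 43.0% of S2 members (37.7 to 48.4) and 23.8% of the rest (22.1 to 25.5). The reverse did not hold: fewer fraction 4 regions were in the S2 list in the ends, 54.5% (49.0 to 60.01) against 66.3% on the rest. For fraction 5 the shares were 55.9% (50.8 to 60.8) and 65.9%, and for fraction 6 58.4% (53.1 to 63.5) and 61.3%, or 34.2% (29.3 to 39.3) and 44.2% when 50% of both regions had to overlap. The fractions thus listed regions that the pooled list of the same line did not hold, both in the ends and on the rest. Their share was larger in the ends for fractions 4 and 5. For fraction 6 the difference depended on the overlap rule.

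**Figure D4:**
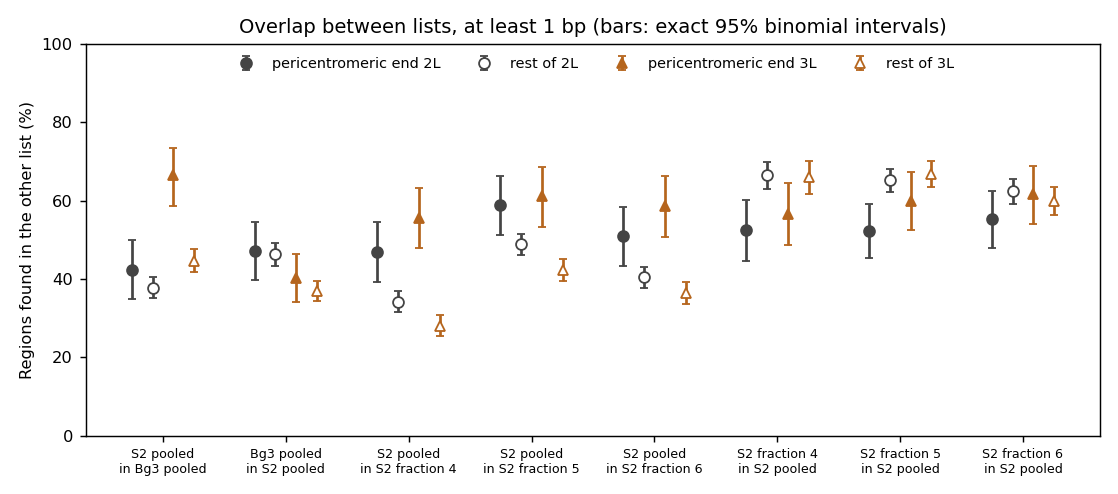
Share of regions of 1 list found in another list (vertical axis, %), for the ends (filled) and the rest (open) of 2L (circles) and 3L (triangles), with exact 95% binomial intervals as bars. For S2 regions in the fractions the ends lie above the rest, while for fraction 4 and 5 regions in the S2 list they lie below.

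Regions of all 5 lists that overlapped in the ends formed 726 sites. Sites in all 5 lists numbered 109 (15.01%, interval 12.5 to 17.8), against 372 of 4765 on the rest (7.81%, 7.06 to 8.61). Sites in 1 list alone were 47.5% (43.8 to 51.2) in the ends and 55.2% (53.8 to 56.6) on the rest. Per Mb, sites in all 5 lists were 3.15 times as dense in the ends (2.52 to 3.91) and sites in 1 list 1.41 times (1.26 to 1.58). The first ratio was 4.06 (2.98 to 5.46) on 3L and 2.42 (1.72 to 3.34) on 2L. Sites were formed from any overlap, and regions of the ends were wider and denser, which joins more lists by chance. The part of this in these shares and ratios was not tested. Sites of Bg3 alone numbered 177, 24.4% (21.3 to 27.7) of the sites in the ends and 26.9% on the rest. Sites of S2 alone numbered 80, 11.02% (8.83 to 13.5) against 17.9%. The 36 sites in all 3 fractions but in neither pooled list were 4.96% (3.50 to 6.799) against 1.70% (1.35 to 2.11).

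One stretch of 2L carried regions in 4 lists and none in the S2 list. It was chosen after the values were seen and is taken here as starts from 21.415 to 21.545 Mb. Fraction 5 listed 19 regions there with a median width of 4026 bp, fraction 6 listed 15 with 3936 bp, and fraction 4 listed 5 with 4264 bp. The Bg3 list held 13, with a median of 3452 bp and strengths from 6053 to 14500 reads per kb. The S2 list held 0 of its 175 members of 2L there. The stretch was chosen with this 0 known, so no bound on the S2 share can be drawn from it. The nearest S2 members lay at 21403444 to 21406142 and 21555217 to 21557284. The 149 kb between them was the widest gap between S2 members of either end and rank 35 among the 6450 S2 gaps of the 6 arms.

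Some of the regions followed each other at nearly equal distances. In fraction 5 the distance from one start to the next had a median of 5089 bp, and 9 of 18 distances lay between 4900 and 5200 bp, the others running from 3845 to 24959 bp. In fraction 6, 5 of 14 distances lay in that range and the median was 5123 bp, the others running from 4153 to 33537 bp. Over all 6 arms 1.27% of distances in fraction 5 and 1.22% in fraction 6 were in that range. In fraction 5, 8 such distances followed each other, from the start at 21456014 to the start at 21496577, and the longest run anywhere else on the 6 arms was 2. Bg3 had 0 of 12 distances in the range, and its starts there were a median of 8438 bp apart. This count takes successive starts only, and cannot show such a spacing where a region in between is not listed. The range of 4900 to 5200 bp was set after the values were seen, so the comparison with the 6 arms is not a test. Regions of the stretch were also wider, with a fraction 5 median of 4026 bp, against 495 bp on the rest of 2L and 3L. Wide regions cannot start close together, so the shares are not like for like.

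Regions of this stretch overlapped between lists in part. Of the 19 fraction 5 regions 15 overlapped a fraction 6 region, 10 a Bg3 region and 5 a fraction 4 region. Fraction 5 covered 56.1% of the stretch, so an overlap of 1 bp with it is often reached by chance. Of the 15 fraction 6 regions 15 overlapped a fraction 5 region and 9 a Bg3 region. The 5 fraction 4 regions were all in fractions 5 and 6, and 3 were in Bg3. The Bg3 origins there held 372 k weighted reads, 30.6% of the Bg3 reads of the end of 2L. The tandemly repeated histone genes of Drosophila lie in the proximal part of 2L, but no dm3 annotation was used here and the stretch was not assigned to any gene. The sources used here do not say how reads from repeated DNA were placed, and the part of that step in the result was not tested.

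The difference between S2 and its own fractions in this stretch was tested in 100 kb windows, a choice made after the data were seen. From 21.4 to 21.5 Mb the S2 list had 1 origin, fraction 6 had 14 and fraction 5 had 16. Against fraction 6 the window passed (exact binomial test, adjusted p = 0.0324), where 0.207% of all 964 windows did. Against fraction 5 it did not (exact test, adjusted p = 0.064, with 0% of 960 windows passing and 15 under an unadjusted p of 0.05). Against fraction 4, with 8 regions, the exact test's adjusted p was 0.671, with 0% of 891 windows passing and 22 under 0.05 unadjusted. Against Bg3, with 14 origins, the exact test's adjusted p was 0.252, with 0% of 1006 windows passing and 84 under 0.05 unadjusted.

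**Figure D5:**
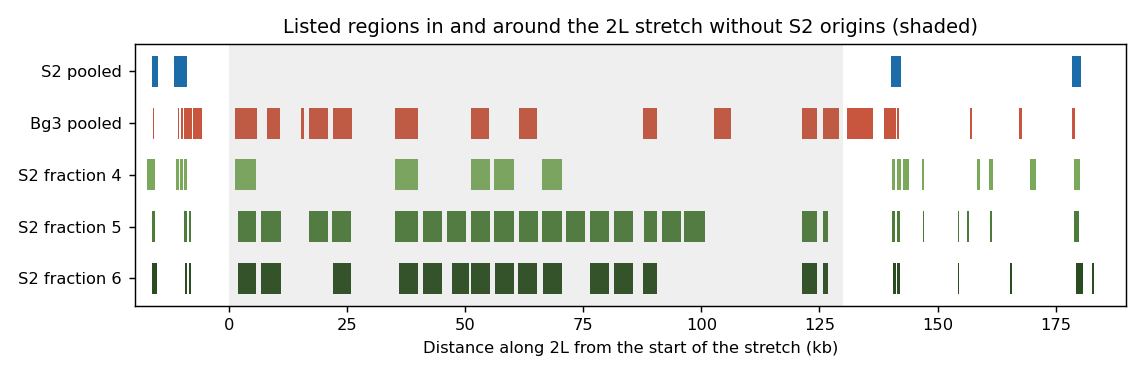
Listed regions (bars, drawn to scale) along 2L in each of the 5 lists, by distance in kb from the start of the stretch, which is shaded. Fraction 5 has a row of 9 regions in which successive starts lie 5000 to 5111 bp apart, fraction 6, Bg3 and fraction 4 have some of them, and the S2 row is empty from 21406143 to 21555216.

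A second stretch of 2L was empty in Bg3 and not in the other 4 lists. Between 21711694 and 21929863 the Bg3 list had no origin over 218 kb, the widest gap between Bg3 members of either end and rank 22 among the 6722 gaps between Bg3 origins of the 6 arms. The S2 list held 15 origins there and fractions 4, 5 and 6 held 10, 13 and 7. These S2 origins were of ordinary strength, from 1123 to 2377 reads per kb with a median of 1815. Of the 15, 6 were in at least 1 fraction, 40% (16.3 to 67.7). The share was 66.9% (59.4 to 73.8) for all S2 members of 2L and 54.8% on the rest of 2L. These shares are not like for like, because none of the 15 can be in Bg3, whereas 42.3% of all S2 members of 2L were. In the 500 kb window that holds it, 2L from 21.5 to 22 Mb, S2 had 31 origins and Bg3 19 (exact binomial test, adjusted p = 0.260), which did not pass.

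The share of S2 origins found in Bg3 varied along the ends. On 2L, 27.8% of S2 origins from 21 to 21.5 Mb and 22.6% from 21.5 to 22 Mb were found in Bg3 (intervals 14.2 to 45.2 and 9.59 to 41.1). From 22 to 22.5 and 22.5 to 23 Mb the shares were 53.4% (39.9 to 66.7) and 51.02% (36.3 to 65.6). On 3L they were 40% (19.1 to 63.9) from 22.5 Mb, then 75% (56.6 to 88.5), 66.1% (52.2 to 78.2) and 75.9% (62.4 to 86.5) in the next 3 windows. The window from 21.5 Mb on 2L holds the gap, where sharing is 0 by definition, and 7 of its 16 S2 origins outside the gap were in Bg3 (43.8%, 19.8 to 70.1). In the other direction the shares of Bg3 origins found in S2 were 39.4%, 47.4%, 49.3% and 49.3% on 2L and 30.8%, 36.6%, 48.7% and 39.1% on 3L, with no low value at the gap. The inner windows also held more Bg3 origins, and the part of density in these shares was not tested.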

How the data were processed

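Lists of SNS-Seq regions for 2 lines and 3 S2 fractions were used as the authors deposited them. Bowtie2 2.2.0, MACS 1.4.1, SAMtools 0.1.19 and build dm3 are named in the submitters' processing notes; settings, and the way replicates were combined, were not given in the sources used. The authors' deposited efficiency, a signal, was read from its values as reads per kb. Starts and ends were left as in the files, where the lowest start is 0, so starts may be 1 base too low.

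Members were taken by start position. An overlap of 1 bp or more counted as shared. Intervals were exact binomial, Poisson or order-statistic intervals (scipy 1.17.1, pandas 2.3.3). Windows with at least 5 origins over 2L, 2R, 3L, 3R, X and 4 entered the two-sided exact binomial test against the lists' overall shares. The procedure was run on simulated counts drawn independently, which do not have the clustering of the origins. The test compares lists, not replicated conditions. Named origins were the 5 strongest of S2 and Bg3 in each end, the fullest 100 kb windows and the origins at the boundary. The widest fraction regions, also covered by the rule, are in the closing section. The ends, lists and measures were chosen with earlier results of these data known. Alternatives covered the boundary, each arm alone, merging, the overlap rule, the comparison region, wide regions, means and window size. No dm3 genome or annotation was used, so no gene or sequence is given.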

Additional observations from a re-analysis of the deposited data

Results flagged for a closer look

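The 3L window from 23 to 23.5 Mb stood out because the numbers of origins in the 2 lines departed from their genome-wide proportion, with 32 in S2 and 71 in Bg3 (exact binomial test, adjusted p = 0.00689). The adjusted p was 0.209 with regions within 1 kb merged, 0.00483 without regions of 4 kb or more and 6.69e-06 with shared origins left out. Of the S2 origins in this window 24 of 32 were found in Bg3, and of the Bg3 origins 26 of 71 were found in S2. Leaving out shared origins thus took similar numbers from both lists, which by itself makes the proportion more unequal. With them left out 25.1% of all windows passed, against 8.64% with all origins.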

How the results depend on the processing

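No paired analysis was possible because each list combined its replicates or libraries and held no column per replicate; no replicate could be left out either. Density stayed higher in the ends in all 5 lists under every alternative run. Values that left the interval of the reported ratio are given here. Merging regions within 1 kb took the density ratio to 1.52 in Bg3 and 1.98 in fraction 5, and the width ratio to 1.52 in Bg3, 1.93, 1.79 and 1.69 in fractions 4, 5 and 6. In Bg3 the density ratio was 2.17 with boundaries 500 kb nearer the centromere and 2.101 against the rest of all 6 arms. In fraction 4 it was 2.40 for the end of 2L alone and 3.59 for 3L alone. For 3L alone the width ratio was 1.75, 1.68 and 1.66 in fractions 4, 5 and 6, and for 2L alone it was 1.27 in fraction 5. Means in place of medians gave a width ratio of 1.398 in fraction 4 and strength ratios of 2.17 in S2 and 1.67 in Bg3. The strength ratio was 1.003 for 3L alone in S2, and 1.11 for 2L and 0.947 for 3L in Bg3. Under 50% overlap of both regions, shares fell to 25.7% (S2 in Bg3), 19.2% (Bg3 in S2) and 38.2%, 36.7% and 34.2% (fractions 4, 5 and 6 in S2), against 23.1%, 22.1%, 50.2%, 45.97% and 44.2% on the rest. With a gap of 500 bp allowed they were 62.0%, 52.6%, 61.5%, 66.1% and 68.3%, against 44.97%, 44.3%, 70.7%, 71.7% and 69.5%. S2 in Bg3 was 42.3% for 2L alone and 66.5% for 3L alone. The count of end windows with different S2 and Bg3 numbers went from 1 (8.64% of all windows) to 0 with 100 kb windows (0%), 250 kb windows (1.28%) or merged regions (5.76%), and to 3 with shared origins left out (25.1%). Leaving out the stretch of 2L without S2 origins, added after the data were seen, kept density, width and strength ratios and shares within their intervals (Bg3 strength ratio 0.998). Causes were not tested. Precision is limited by the number of members and by lists that hold no depth per library.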

Other observations

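The widest fraction regions of the ends recurred across lists. On 3L all 3 fractions had the same widest region, at 24211929 to 24218541 in fraction 4 (6613 bp), 24211981 to 24218505 in fraction 5 (6525 bp) and 24211973 to 24218520 in fraction 6 (6548 bp). The S2 list held it as 1 origin of 5970 reads per kb, and the Bg3 list as 3 origins of up to 3406 reads per kb. On 2L the widest region was at 22793425 to 22800599 in fraction 5 (7175 bp) and 22793317 to 22800503 in fraction 6 (7187 bp), where fraction 4 listed a region from 22797124. In fraction 4 the widest was at 22200524 to 22206961 (6438 bp), and the S2 origin there, from 22199216, had 17242 reads per kb.

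Other centromere-side ends were set beside these, a choice made after the data were seen. The first 2 Mb of 2R had 71.5 origins per Mb in S2 and 116.5 in Bg3, ratios to the rest of 2R of 1.17 (exact interval 0.975 to 1.39) and 1.81 (1.57 to 2.09). The first 2 Mb of 3R had ratios of 1.12 (0.931 to 1.35) in S2, 1.22 (1.003 to 1.47) in Bg3 and 1.02 (0.775 to 1.32) in fraction 4. The last 2 Mb of X had ratios of 1.51 (1.18 to 1.91) in S2, 1.66 (1.31 to 2.08) in Bg3 and 2.35 (1.76 to 3.09) in fraction 4. On 2R fractions 4, 5 and 6 had ratios of 2.06 (1.69 to 2.48), 1.37 (1.14 to 1.63) and 1.46 (1.21 to 1.75), and on X fractions 5 and 6 had 1.87 (1.47 to 2.35) and 1.74 (1.37 to 2.19). On 3R fractions 5 and 6 had 1.097 (0.888 to 1.34) and 1.19 (0.957 to 1.48). The interval lay above 1 in all 5 lists on X, in all but S2 on 2R, and in Bg3 alone on 3R. Differences between arms were not tested.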
